A study of Mus musculus with 622 samples.

Results

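The embryos described here are the 4-cell parthenotes of the miR-465c-3p experiment: 23 GFP-injected controls, 24 embryos given a low dose of the microRNA and 16 given a high dose, 63 of the 622 samples of the series. They were picked by sample title and not by a measured value, though earlier results of these data were known when they were chosen. The study's question is how gene expression in the early mouse embryo depends on the quantity of a sperm microRNA delivered to it. A parthenote is an embryo that develops from an egg activated chemically, without sperm, so the injected microRNA is not joined by anything a sperm brings. All 3 groups came from superovulated FVB/NJ females aged 5 to 7 weeks, per the labels' protocols. Their eggs were activated with strontium chloride together with EGTA and cytochalasin B, received about 53 fL into the cytoplasm, and were lysed singly at 46 h after activation. The low dose was about 200 molecules. The amount behind the high dose is not given in the labels, so the doses entered the tests by their order alone. Eggs of several females were pooled and assigned at random, with all treatments handled in parallel on each day. No label gives the day on which an embryo was injected, so the p-values below measure the spread between single embryos of 3 groups and take no account of days. Libraries were made from polyadenylated RNA, so neither the injected microRNA nor its uptake was measured.

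A microRNA loaded into an Argonaute protein recognises messenger RNAs mainly through its seed, the bases from position 2 to position 8, which pair with sites most often found in 3′ untranslated regions (3′ UTRs). Pairing leads to decay of the messenger and to less translation. The miR-465 genes lie in a cluster of microRNA genes on the X chromosome and are known for their expression in the male germ line. The mouse embryo activates most of its own genome by the late 2-cell stage, so a 4-cell embryo carries new transcripts beside what is left of the maternal stock.

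The injected sequence and its relatives are printed to show what they share, from RefSeq on GRCm38.p6 (the mm10 genome), with the seed in capitals.
miR-465c-3p: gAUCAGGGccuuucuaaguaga
miR-465d-3p: uGAUCAGGgccuuucugaguaa
miR-200c-3p: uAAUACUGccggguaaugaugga
The mature miR-465c-3p sequence is annotated on the minus strand at chrX:66825965-66825986. Its partner miR-465c-5p is annotated at chrX:66826004-66826025 and again at chrX:66832566-66832587. The mature 3p sequences of miR-465a and miR-465b have the same 22 bases as miR-465c-3p, whereas in miR-465d-3p the same run of bases sits 1 position later, so that its seed differs. miR-200c-3p, the microRNA of the other dose experiment in the series, has an unrelated seed. A seed match in a 3′ UTR was read on the strand of the messenger as CCCTGATA (an 8mer), CCCTGAT without the final A (a 7mer-m8) or CCTGATA without the first C (a 7mer-A1), each gene counted under its longest match.

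The libraries held 414273 to 6774824 expected counts (median 3436930), and 7035 to 11118 genes had a count. Depth, genes detected, the percentage of counts held by the 10 top genes and the distance of an embryo to its group mean were set against injection and dose in 8 two-sided permutation tests, of which 0 passed (smallest adjusted p = 0.473). Control embryo 23 stood apart, with 584100 counts, 17.8% of them in its 10 most abundant genes (group median 6.90%), and a median Pearson r of 0.517 with the other embryos, against 0.770 over all embryos. The labelled stage was checked against marker genes. Zscan4c, Zscan4d, Zfp352 and Usp17lc, genes of the 2-cell embryo, summed to a median of 6.01 CPM (counts scaled to a library total of 1000000) in injected and 4.64 CPM in control 4-cell embryos, while 2-cell controls had 1037 CPM. The highest sum was 187 CPM in injected and 18.7 CPM in control 4-cell embryos. Since CPM are shares of a whole embryo's RNA, fewer cells of a kind and less RNA per cell cannot be told apart. Cdx2, Gata3, Krt8 and Krt18, genes of the trophectoderm, summed to 16.6 CPM in injected and 9.56 CPM in control 4-cell embryos, against 2914 CPM in control morulae. Transcripts of the paternally expressed imprinted genes Snrpn, Peg3, Mest, Impact and Sgce summed to 9.37 CPM in injected and 9.80 CPM in control embryos, against 102 CPM in 2-cell controls. Of 8 cumulus and granulosa cell markers, Fshr, Has2 and Ptx3 were at 0 in every embryo, and the sum of the 8 ranged from 0 to 12.0 CPM in injected and from 0 to 0.903 CPM in control embryos. Not every such marker was low: Amhr2, from a longer list of 18, had a mean of 409 CPM over all embryos. The sperm transcripts Prm1, Prm2, Tnp1 and Tnp2 had a median of 0 CPM in both groups, but 3 low-dose embryos, numbered 26, 25 and 24, held 205, 86.1 and 25.9 CPM and the low-dose embryos 4 and 20 held 14.3 CPM each, against at most 8.27 CPM in controls. No source of these transcripts is given in the labels. Leaving out the 3 embryos over 20 CPM changed no count: 0 genes passed by edgeR in any of the 5 comparisons of 4-cell embryos.

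No gene passed the threshold in either comparison that the experiment was set up for. Of 10027 genes tested, 0 (0%) had an adjusted p under 0.05 for the ordered dose trend and 0 (0%) for all 40 injected embryos against the 23 controls (edgeR quasi-likelihood test, Benjamini-Hochberg adjustment). At an unadjusted p under 0.05 there were 322 genes for the trend, or 3.21% of those tested, with 158 higher (1.58%) and 164 lower (1.64%). For injected against control there were 370 genes, or 3.69%, with 210 higher (2.09%) and 160 lower (1.6%). By DESeq2, a second tool, 0 genes passed for the trend and 4 passed for injected against control, all of them higher in injected embryos: A430005L14Rik, Gm10697, Zfp707 and Pigyl. The doses taken singly gave 0 genes past the threshold for low against control (309 at an unadjusted p under 0.05, or 3.08%), 0 for high against control (312, or 3.11%) and 0 for high against low (201, or 2%), by edgeR and by DESeq2 alike.

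The spread between embryos sets what could have been seen. The median standard error of a log2 fold change was 0.38 for injected against control and 0.23 per dose step for the trend. The 95% interval of the injected effect lay within a 2-fold change in either direction for 5015 genes, or 50.0% of those tested. For the trend, 7673 genes, or 76.5%, had an interval within a 2-fold change per dose step. The high dose lies 2 steps from control, so that bound allows a larger change there and the shares are not on one scale. For low and for high against control, the interval lay within a 2-fold change for 44.0% and 37.8% of genes. In each comparison, the remaining genes had intervals that reach beyond its bound, so for them a change of that size lies within the interval.

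**Figure D1:**
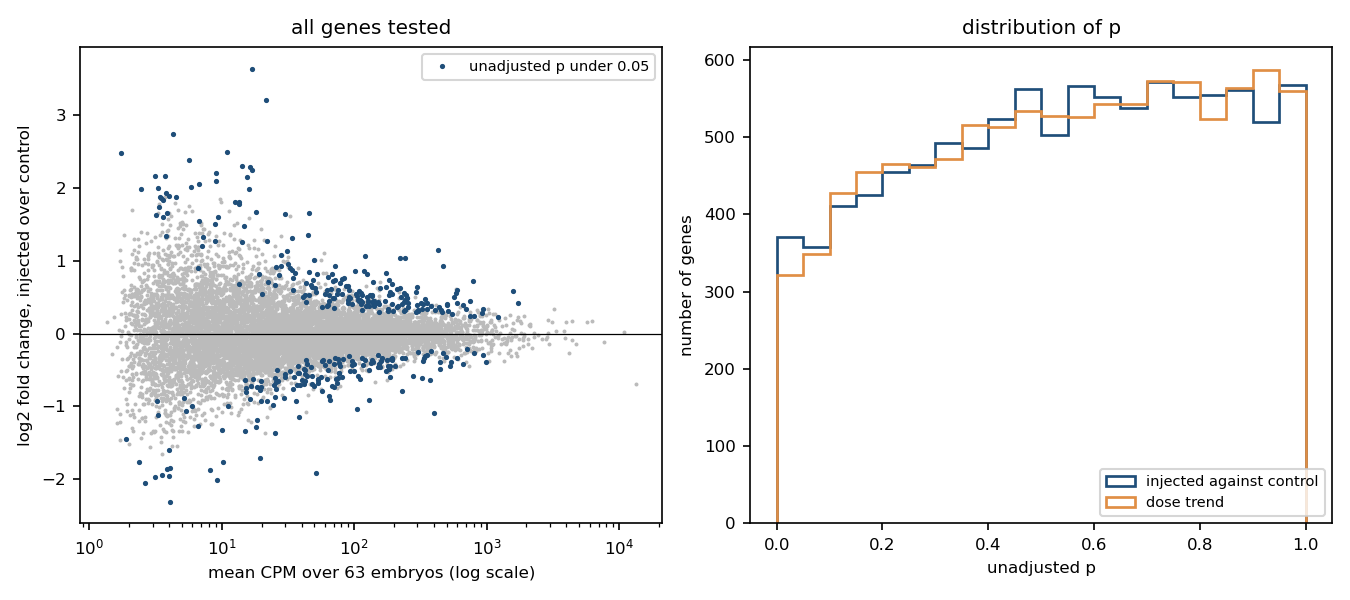
Left, log2 fold change of injected over control 4-cell parthenotes (y axis) against the mean CPM over the 63 embryos on a log scale (x axis), 1 point per gene tested, with the 370 genes of unadjusted p under 0.05 in blue. Right, the number of genes (y axis) by unadjusted p (x axis) for injected against control and for the dose trend; for both, the bin of p under 0.05, with 370 and 322 genes, holds fewer genes than most other bins.

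The genes with the smallest p that were higher after injection are given as a description, since none passed by edgeR with the filter on low counts. Zfp707, a gene for a zinc finger protein (mm10 chr15:75969123-75975868), had the smallest p of the trend. It ranged from 8.56 to 474 CPM in controls with a median of 110.2, from 74.4 to 904 CPM at the low dose with a median of 182, and from 55.0 to 811 CPM at the high dose with a median of 267. The medians follow the order of the doses, the groups overlap, and 35 of 40 injected embryos lay above the control median. Its slope was 0.63 ± 0.16 log2 units per dose step (SE, adjusted p = 0.977 by edgeR). Its injected effect was a log2 fold change of 1.04 ± 0.26 (SE, unadjusted p = 0.000158, adjusted p = 0.529 by edgeR, 0.029 by DESeq2), and the high dose exceeded the low dose by 0.30 ± 0.31, an interval from -0.31 to 0.91.

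For Ntmt1, Med29 and Klf11 the low dose lay nearly as far from control as the high dose, with log2 differences between high and low of 0.06 ± 0.18, 0.11 ± 0.18 and 0.11 ± 0.23 (SE). Ntmt1, an enzyme that methylates the amino end of proteins, had a median of 438 CPM in controls, 604 CPM at the low dose and 661 CPM at the high dose. Means were 682 ± 291 CPM in injected and 444 ± 146 CPM in control embryos (SD, n = 40 and 23), a log2 fold change of 0.60 ± 0.15 (SE, adjusted p = 0.529 by edgeR). Of the injected embryos, 18 of 40 lay above the highest control, the others within the control range. Med29, a subunit of the Mediator complex that links transcription factors to RNA polymerase II, had medians of 479, 569 and 630.2 CPM in control, low-dose and high-dose embryos, and again 18 of 40 injected embryos exceeded the highest control. The log2 fold change was 0.55 ± 0.15. Klf11, a Krüppel-like transcription factor, had medians of 74.4, 127 and 148 CPM in the same order, with 36 of 40 injected embryos above the control median and a log2 fold change of 0.70 ± 0.19.

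Pigyl, related to a subunit of the enzyme that starts the glycosylphosphatidylinositol anchor, was a low-level transcript. It had medians of 18.6 CPM in controls, 38.1 CPM at the low dose and 30.5 CPM at the high dose, a log2 fold change of 0.91 ± 0.25 for injected against control (adjusted p = 0.855 by edgeR, 0.0384 by DESeq2). As with Ntmt1 and Med29, 18 of 40 injected embryos lay above the highest control value. Foxr1, a forkhead transcription factor gene, had medians of 49.4, 74.0 and 83.0 CPM in control, low-dose and high-dose embryos and a slope of 0.49 ± 0.12 per dose step. Rfxank, a subunit of the complex that drives major histocompatibility class II genes, had medians of 37.9, 32.4 and 60.7 CPM, so only the high-dose median was above that of controls. Its log2 difference was 1.06 ± 0.31 for high against control and 0.79 ± 0.31 for high against low (adjusted p = 0.9998 in both, by edgeR). High-dose embryo 20 held 377 CPM, and the other high-dose embryos at most 78.2 CPM. Without that embryo the differences were 0.63 ± 0.28 and 0.36 ± 0.28, and the slope of 0.51 ± 0.15 became 0.31.

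A430005L14Rik and Gm10697 are named after their values were seen. A430005L14Rik had the smallest p of the injected comparison. It ranged from 17.1 to 215 CPM in controls with a median of 106, from 61.0 to 418 CPM at the low dose with a median of 210.0, and from 97.8 to 473 CPM at the high dose with a median of 181. Its log2 fold change was 0.83 ± 0.18 (SE, adjusted p = 0.274 by edgeR, 0.0112 by DESeq2), and 19 of 40 injected embryos lay above the highest control. The high dose differed from the low dose by 0.04 ± 0.22. Gm10697 reached 1231 CPM in a single control while the control median was 23.7 CPM, with 45.8 CPM at the low dose and 80.7 CPM at the high dose. Its fitted log2 fold change moved with the tool, from 0.65 ± 0.50 by edgeR (adjusted p = 0.999) to 1.83 ± 0.40 by DESeq2 (adjusted p = 0.0226). Single embryos moved it as far by edgeR, to 1.78 without control embryo 3 and 0.41 without high-dose embryo 16.

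**Figure D2:**
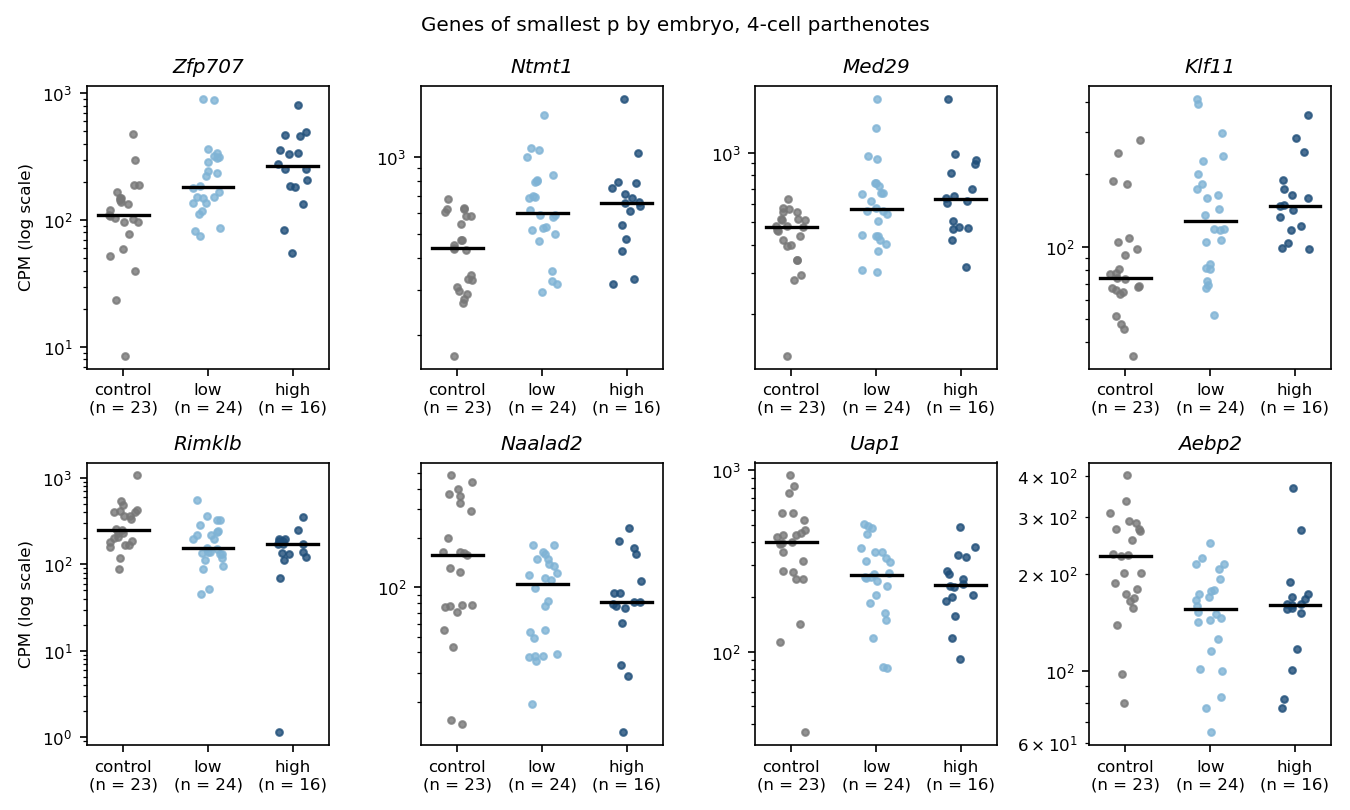
CPM on a log scale (y axis) in each embryo for 8 of the genes with the smallest p, by control, low-dose and high-dose group (x axis); points are embryos and black lines are group medians. The groups overlap in every panel; the control median is the lowest of the 3 for Zfp707, Ntmt1, Med29 and Klf11 and the highest for Rimklb, Naalad2, Uap1 and Aebp2.

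Among the named genes lower after injection, the smallest p of the injected comparison belonged to Naalad2, a peptidase that cleaves N-acetylaspartylglutamate (mm10 chr9:18321951-18397538). It ranged from 14.7 to 483 CPM in controls with a median of 158, from 19.4 to 182 CPM at the low dose with a median of 105, and up to 232 CPM at the high dose with a median of 81.3. Means were 98.1 ± 55.2 CPM in injected and 187 ± 145 CPM in control embryos (SD, n = 40 and 23), and 8 of 40 injected embryos lay above the control median. The log2 fold change was -0.91 ± 0.26 (SE, adjusted p = 0.855 by edgeR). Rimklb, an enzyme that adds glutamate to N-acetylaspartate, had the smallest p of the named genes with a negative slope. Its medians were 248 CPM in controls, 153 CPM at the low dose and 172 CPM at the high dose, so the high dose was not below the low dose. The slope was -0.48 ± 0.14 log2 units per dose step and the injected effect -0.79 ± 0.23 (adjusted p = 0.855 by edgeR).

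Uap1, which makes the sugar nucleotide UDP-N-acetylglucosamine, had medians of 400.4, 263 and 232 CPM in control, low-dose and high-dose embryos, in the order of the doses. The highest injected embryo reached 506 CPM, against 937 CPM in controls, and the log2 fold change was -0.62 ± 0.19. Aebp2, a cofactor of the Polycomb repressive complex that methylates histone H3, had medians of 227, 156 and 161 CPM, and 3 of 40 injected embryos lay above the control median. The adjusted p of its log2 fold change, -0.48 ± 0.15, was 0.965 by edgeR. Zfp936, another zinc finger gene, had medians of 35.4, 20.8 and 18.6 CPM and a log2 fold change of -0.92 ± 0.30.

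Enah and Cenpf had their largest differences at the high dose. Enah, a regulator of actin filaments, had medians of 32.4 CPM in controls, 27.8 CPM at the low dose and 16.5 CPM at the high dose. Its log2 difference from control was -0.16 ± 0.30 at the low dose and -1.17 ± 0.34 at the high dose, and the high dose differed from the low dose by -1.01 ± 0.34 (adjusted p = 0.9998 by edgeR). Cenpf, a kinetochore protein, had medians of 40.5, 32.1 and 17.7 CPM and a slope of -0.50 ± 0.17. Over the 16 genes named by rank of p, the high-dose effect was larger than the low-dose effect for 11, and Rfxank and Enah were the 2 with an unadjusted p under 0.05 between the doses. These genes were chosen on these same comparisons, so those counts describe them and support nothing.

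The values of Hist2h3c1 and Fscn1 rested on control embryo 23. Hist2h3c1, a histone H3 gene, reached 1858 CPM in that embryo, while the control median was 11.7 CPM and the medians of the low and high doses were 17.5 and 21.4 CPM. Its log2 fold change was -1.91 ± 0.56 with that embryo and 0.64 without it, so its direction turned. Histone H3 genes are near-identical copies whose reads the counting could split, so the value is uncertain on that ground too. Fscn1, which bundles actin filaments, reached 6384 CPM in the same embryo against a control median of 254 CPM, and its log2 fold change of -1.09 ± 0.33 was -0.28 without it.

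The fixed genes Ago2, Dicer1 and Nr5a2 had small estimates, with 95% intervals that included 0 and lay within a 2-fold change in either direction. Ago2, the Argonaute that microRNAs guide, had medians of 84.8 CPM in controls, 104 CPM at the low dose and 102 CPM at the high dose. Its log2 fold change was 0.06 ± 0.24 (95% interval from -0.41 to 0.54). The sign turned, to -0.11, with RLE scaling of the libraries in edgeR and by DESeq2. Dicer1, which cuts microRNA precursors, had medians of 33.4, 45.6 and 43.6 CPM and a log2 fold change of 0.08 ± 0.22 (interval from -0.37 to 0.52). Nr5a2, a nuclear receptor gene of the early embryo, had medians of 232, 265 and 249 CPM. Its log2 fold change of -0.04 ± 0.15 had an interval from -0.33 to 0.25 and changed sign with the share of the 10 most abundant genes as a covariate (0.07), without the 4 embryos under 1000000 counts (0.09) and without control embryo 10 (0.02) or 23 (0.05).

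**Figure D3:**
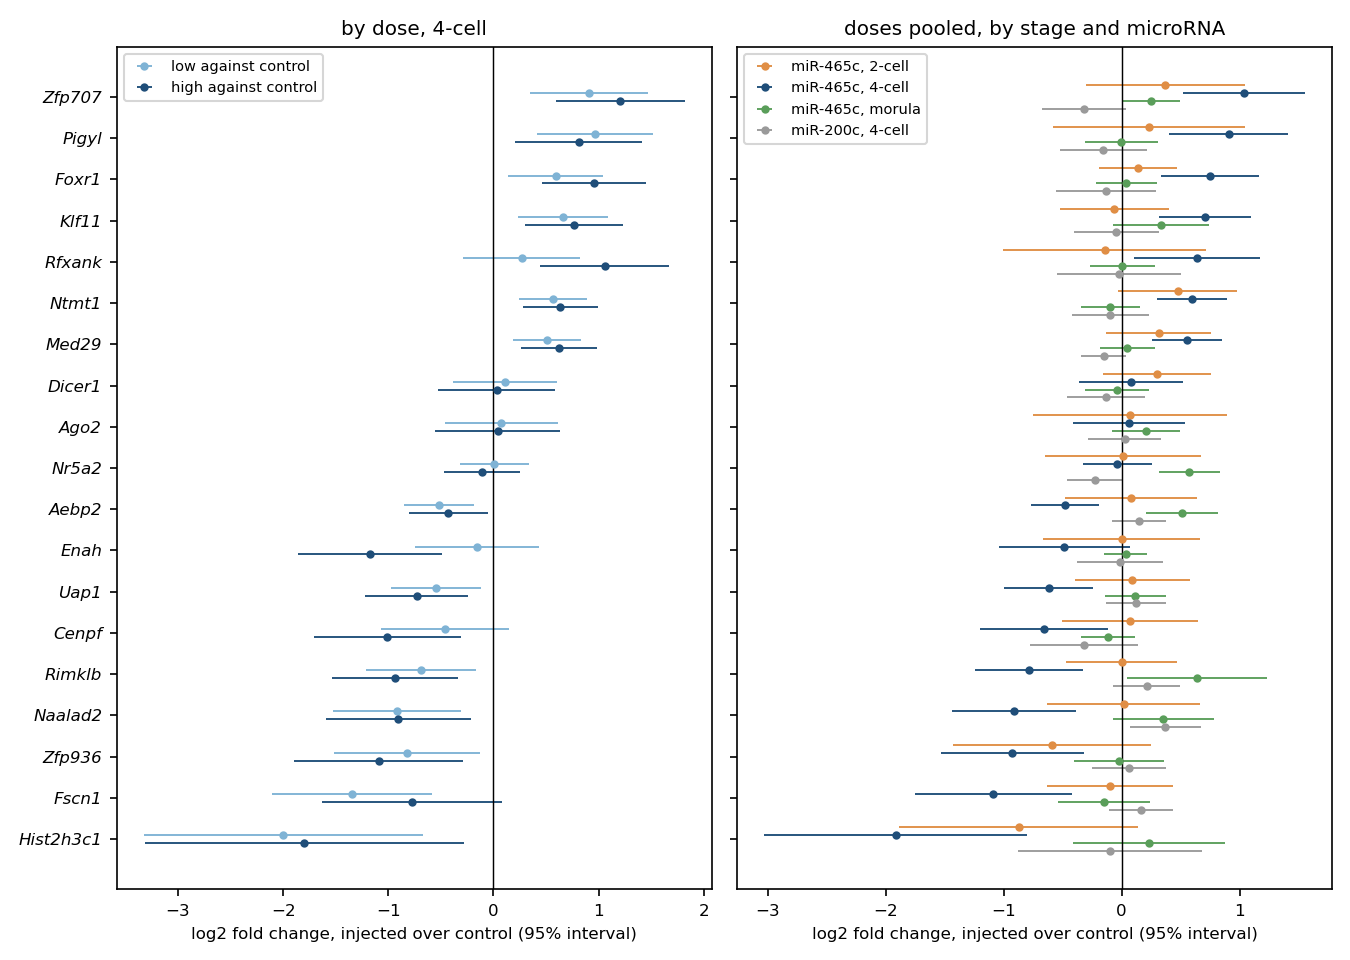
Log2 fold change of injected over control with its 95% interval (x axis) for the 16 genes named by rank of p and for Ago2, Dicer1 and Nr5a2 (rows). Left, low and high dose in 4-cell parthenotes. Right, all injected embryos for miR-465c at the 2-cell, 4-cell and morula stages and for miR-200c at the 4-cell stage. Doses were pooled except at the 2-cell stage, where a single injected group has no dose in its labels. The 4-cell intervals of the rank genes mostly exclude 0, which their selection fixed, whereas most of the intervals of the other stages and of miR-200c include it.

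Gene groups were described by counts and medians beside those of all genes, of which 210 were higher and 160 lower at an unadjusted p under 0.05 for injected against control, with a median log2 fold change of -0.015. No member of any of the 20 lists passed the threshold. The p53 and apoptosis list had 24 of 33 genes tested, with 4 higher and 0 lower at an unadjusted p under 0.05 and a median of 0.12. Sesn2, a stress-induced regulator of growth signalling that p53 and ATF4 can drive, had medians of 191 CPM in controls, 311 CPM at the low dose and 381 CPM at the high dose, with single embryos up to 3097 CPM. Sesn2 had a log2 fold change of 1.14 ± 0.34 (adjusted p = 0.855 by edgeR). Cdkn1a, the p53 target that halts the cell cycle, had 272 ± 187 CPM in injected and 182 ± 109 CPM in control embryos (SD, n = 40 and 23), a log2 fold change of 0.55 ± 0.23. Gadd45a and Btg2 were scarce. Gadd45a had a count in 13 of 23 controls, 10 of 24 low-dose and 9 of 16 high-dose embryos, and Btg2 in 4, 15 and 9. Btg2 thus passed the filter on low counts through the injected embryos, which ties its direction to the filter.

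The unfolded protein and integrated stress response list had 26 genes tested, 2 higher and 0 lower at an unadjusted p under 0.05, with a median of -0.10. These were Sesn2 again and Ppp1r15a, the phosphatase subunit that ends the stress-induced arrest of translation. Ppp1r15a had medians of 265 CPM in controls, 295 CPM at the low dose and 496 CPM at the high dose, a log2 fold change of 0.93 ± 0.28 (adjusted p = 0.855 by edgeR). The heat shock list was split, with Hspa1a and Hspa1b at 1.31 ± 0.63 and 1.35 ± 0.63 and Hsp90aa1 and Dnaja1 at -0.29 ± 0.14 and -0.48 ± 0.22. Without low-dose embryo 20, Hspa1a and Hspa1b were at 0.71 and 0.66. The list's 17 tested members had a median of -0.072.

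The 26 tested genes of major genome activation and the 2-cell stage had a median log2 fold change of 0.045, with 2 higher and 0 lower at an unadjusted p under 0.05. Those were Usp17lb and Spz1, which had a count in 22 and 19 of 40 injected embryos and in 4 and 3 of 23 controls. With so few controls, both passed the filter on low counts through the injected embryos. Their direction was thus tied to the filter, and the count of 2 higher describes them only. Usp17lb belongs to a family of near-identical copies, so its reads could be split between genes. The 50 tested maternal oocyte transcripts had a median of -0.017, with Omt2b higher at 0.72 ± 0.34 and Fbxw24 lower at -0.79 ± 0.36 (-0.39 without control embryo 22). By dose the median of this list was 0.0061 for low against control and -0.28 for high against control, beside -0.019 and -0.022 over all genes. At the high dose 31 of the 50 had a negative sign, or 62.0%, beside 52.2% of all genes, and 2 were lower and 0 higher at an unadjusted p under 0.05, beside 154 lower (1.54%) and 158 higher (1.58%) of all genes.

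Of the pluripotency and inner cell mass list, 19 genes were tested, 0 were at an unadjusted p under 0.05 in either direction, and the median was -0.16. Nanog, a pluripotency factor, had 119 ± 95.9 CPM in injected and 153 ± 113 CPM in control embryos, a log2 fold change of -0.33 ± 0.35. The trophectoderm list (20 tested, median -0.046) and the primitive endoderm list (8 tested, median -0.35) also had 0 members at an unadjusted p under 0.05. Gata4 had 226 ± 115 CPM in injected and 290 ± 164 CPM in control embryos.

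Among housekeeping groups, the 84 cytosolic ribosomal protein genes had a median of -0.034 and 0 members at an unadjusted p under 0.05. The 81 oxidative phosphorylation genes had a median of -0.0075 with 2 higher (Ndufa2 and Ndufb7) and 2 lower (Atp5c1 and Cox6c). The 44 proteasome genes had 1 higher, Psme4 at 0.67 ± 0.31. The 48 cell cycle genes had a median of -0.052 with 2 lower, Ccna2 at -0.27 ± 0.12 and Cenpf.

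The 27 tested genes of the microRNA pathway had a median of -0.0082, with 1 lower at an unadjusted p under 0.05, the deadenylase subunit Cnot6 at -1.13 ± 0.55, with 2.30 ± 2.35 CPM in injected and 5.09 ± 5.76 CPM in control embryos. The 16 tested interferon and RNA sensing genes had 0 members at an unadjusted p under 0.05 and a median of 0.30. Among 43 chromatin regulators, Kdm6b was higher at 0.53 ± 0.22 and Ep300 and Dnmt3a lower at -0.61 ± 0.28 and -0.31 ± 0.15, each at an unadjusted p under 0.05. The value of Ep300 rested on control embryo 23, without which it was -0.0135. The sterol and fatty acid list (29 tested) and both imprinted lists (4 paternally and 8 maternally expressed genes tested) had 0 such members. Of the cumulus and granulosa list 3 genes passed the filter on low counts, Amhr2, Hsd17b1 and Gja1, and of the sperm list none did. These 3 had log2 fold changes from -0.19 to 0.94 for injected against control, with 0 at an unadjusted p under 0.05. For the trend and for high against control 1 of the 3 was higher at that level, beside 1.58% of all genes in each.

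Genes with a seed match of miR-465c-3p had median effects close to those of genes without one. Of 9705 tested genes with a 3′ UTR, 128 (1.32%) held an 8mer, 567 (5.84%) a 7mer-m8 without an 8mer and 406 (4.18%) a 7mer-A1 alone. Their median log2 fold changes for injected against control were -0.041, -0.027 and -0.045, against -0.0135 for the 8604 genes with no match. The share of genes that were lower at an unadjusted p under 0.05 did not keep one order between the sets. For injected against control it was 13 of the 1101 genes with any match (1.18%) and 143 of the genes with none (1.66%). For the trend it was 25 (2.27%) and 136 (1.58%), for low against control 7 (0.636%) and 134 (1.56%), and for high against control 23 (2.09%) and 128 (1.49%). The share that were higher was smaller with a match in each of these comparisons. It was 1.36% against 2.17% for injected against control and 1.18% against 1.63% for the trend. For low and high against control it was 1.09% against 1.73% and 1.18% against 1.63%. A second seed was read in the same way. In the same embryos, which received no miR-200c, the 1777 genes with a match for miR-200c-3p had a median of -0.061 and those without one -0.0050, and for the trend 40 (2.25%) of the genes with that match were lower at an unadjusted p under 0.05, beside 121 (1.53%) of the genes without a match. For injected against control, 1.01% of the genes with the miR-200c-3p match were higher, beside 2.32% of those without it. Genes with a match had longer 3′ UTRs for both microRNAs, a median of 2177 bases against 850 for miR-465c-3p and 2200 against 756 for miR-200c-3p. By dose, the 8mer, 7mer-m8 and 7mer-A1 genes of miR-465c-3p had medians of -0.084, -0.047 and -0.063 for low against control, beside -0.0137 for genes with no match. For high against control the medians of the same classes were -0.080, -0.00093 and -0.059, beside -0.0223.

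Within each embryo, for 482 genes with an 8mer or 7mer-m8 and 6405 genes with no match, the difference in mean log2(CPM + 1) between the sets was -0.325 ± 0.114 in injected and -0.286 ± 0.185 in control embryos (SD, n = 40 and 23). Control embryo 23 was at 0.418, and without it the controls averaged -0.318 ± 0.106 (n = 22), so that the gap between injected and control embryos was -0.0077 instead of -0.040. By dose it averaged -0.347 ± 0.106 at the low dose and -0.292 ± 0.121 at the high dose, and all 3 groups overlapped.

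Of the 19 genes named by rank of p or fixed, 3 (15.8%) carried a match, beside 11.3% of all tested genes with a 3′ UTR. Of the 9 genes lower by rank of p, Aebp2 alone had one (11.1%), and of the 7 higher genes 0 did. Of the 70 other named list members with a 3′ UTR, 7 (10.0%) had a match: E330034G19Rik, Sall4, Dab2, Dgcr8, Dnmt3a, Ppp1r9a and Th. The sites of Aebp2 and of the fixed genes Ago2 and Dicer1 are shown because they are the only matches among those 19 genes, and those of Dnmt3a, a DNA methyltransferase, because it held the most matches of any named gene. The 7mer-A1 or, in Dnmt3a, the 7mer-m8 is in capitals, 5′ to 3′ on the messenger strand, from GRCm38.p6.
Aebp2: tattgatttgaagtCCTGATA
Ago2: caatgcatgtggtaCCTGATA
Dicer1: gttagataaaagtaCCTGATA
Dnmt3a site 1: tgagaaaacattgtCCCTGAT
Dnmt3a site 2: tcgtacatctgttgCCCTGAT
Dnmt3a site 3: tgacctgacacggtCCCTGAT
Dnmt3a site 4: ctgcgactcctttcCCCTGAT
The first 3 lie in the 3′ UTRs at chr6:140651201-140651221 (plus strand), chr15:73103281-73103301 (minus strand) and chr12:104689399-104689419 (minus strand). The 4 sites of Dnmt3a lie on the plus strand at chr12:3908861-3908881, chr12:3910021-3910041, chr12:3910925-3910945 and chr12:3913530-3913550. Beside these sites, Aebp2 had a log2 fold change of -0.48 ± 0.15, Ago2 0.06 ± 0.24, Dicer1 0.08 ± 0.22 and Dnmt3a -0.31 ± 0.15. Zfp707, Ntmt1, Med29, Naalad2, Rimklb and Uap1 held none of the 3 motifs in the 3′ UTR of the transcript used.

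**Figure D4:**
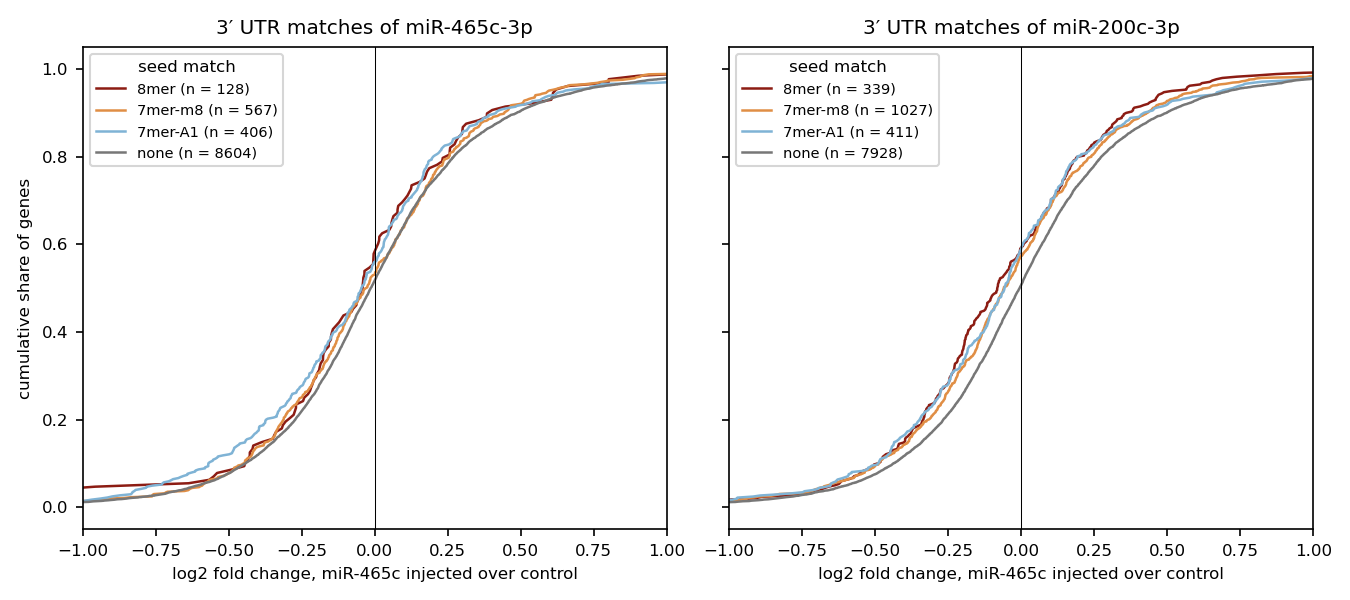
Cumulative share of tested genes (y axis) by log2 fold change of miR-465c injected over control 4-cell parthenotes (x axis, shown from -1 to 1), for genes with an 8mer, 7mer-m8 or 7mer-A1 match or none, for the seed of miR-465c-3p (left) and of miR-200c-3p (right). The curves lie close together in both panels, with medians from -0.045 to -0.0135 on the left and from -0.081 to -0.0050 on the right.

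Other embryos of the series measured the same genes independently. Within the miR-465c experiment, 0 of 9685 genes (0%) passed at the 2-cell stage, with 21 injected and 22 control embryos collected at 28 h, and 0 of 10498 (0%) in morulae, with 57 injected and 22 control embryos collected at 70 h (edgeR). At an unadjusted p under 0.05 these had 94 (0.971%) and 872 genes (8.31%). Of the 16 genes named by rank of p at the 4-cell stage, 10 had the same sign at the 2-cell stage and 8 in morulae. The share of all genes with the same sign was not computed, so these counts describe the 16 only. None of the 16 reached an unadjusted p under 0.05 at the 2-cell stage, and 3 did in morulae. In morulae, Zfp707 was again higher, with a log2 fold change of 0.25 ± 0.13, whereas Rimklb and Aebp2 had the opposite sign, 0.64 ± 0.30 and 0.51 ± 0.15 (adjusted p from 0.423 to 0.597 by edgeR). Nr5a2, which had the smallest p in morulae, was at 0.57 ± 0.13 there (adjusted p = 0.262 by edgeR), and its effect at the 4-cell stage was lower by 0.62 ± 0.25 (interaction, adjusted p = 0.324 by edgeR).

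The difference between stages was tested as an interaction. At the 2-cell stage a single injected group has no dose in its labels, whereas low and high doses were pooled at the other stages. Dose and stage thus cannot be told apart in the comparison with 2-cell embryos. Over 13106 genes, 406 (3.1%) passed for 4-cell minus 2-cell and 273 (2.08%) for 4-cell minus morula. Of these, 14 in each comparison had passed the filter on low counts at both stages. With only the genes that passed it in both, 0 of 8643 and 0 of 9155 passed, with smallest adjusted p of 0.753 and 0.297. Aebp2, Rimklb, Naalad2, Sesn2 and Ppp1r15a were among the 273. Aebp2 had an injected effect lower by 1.01 ± 0.25 at the 4-cell stage than in morulae, with an adjusted p of 0.00607 over all genes and of 0.297 over the genes tested in both.

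The miR-200c embryos gave the other comparison at the same stage, with their own controls. There, 47 embryos with low or high doses against 24 controls had 0 of 9927 genes (0%) past the threshold and 477 (4.81%) at an unadjusted p under 0.05. Of the 16 genes named by rank of p, 3 had the same sign with miR-200c as with miR-465c. The 16 were chosen on the miR-465c values and the share over all genes was not computed, so this count describes them only. With miR-200c, 1 of the 16 reached an unadjusted p under 0.05 by edgeR. The difference between the effects of the 2 microRNAs passed for 4 of 11600 genes (0.0345%), Col13a1, Asb12, Abca4 and Spata6, and for 0 of the 9570 genes tested in both. Nearest among the named genes was Zfp707, at 1.04 ± 0.26 with miR-465c and -0.32 ± 0.18 with miR-200c, a difference of 1.33 ± 0.31 (adjusted p = 0.0604 by edgeR, 0.141 over the genes tested in both). Naalad2 had -0.91 ± 0.26 with miR-465c and 0.37 ± 0.15 with miR-200c, a difference of -1.29 ± 0.30 (adjusted p = 0.0691, 0.141 over the genes tested in both).

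The Ago-REMORA assay gives a separate readout at the 2-cell stage: it marks transcripts by AGO2-based RNA editing, and the authors deposited editing per 3′ UTR as EPKM, a unit their headers do not define. With 28 embryos labelled for the assay with miR-465 and 23 for the assay alone, 0 of 2960 entries (0%) passed the threshold (limma on log2(EPKM + 1)), while 192 had an unadjusted p under 0.05, or 6.49%. Only 6 of the 16 genes named by rank of p could be tested there. Zfp707 had 12.7 ± 6.10 EPKM with miR-465c and 8.96 ± 5.07 EPKM without it (SD, n = 28 and 23), a difference of 0.54 ± 0.29 on the log2 scale (SE, adjusted p = 0.788). Its messenger, 0.37 ± 0.33 log2 units from control in 2-cell embryos, holds none of the motifs. Aebp2, which holds a 7mer-A1, had 0.517 ± 0.346 EPKM with miR-465c and 0.472 ± 0.387 EPKM without it, a difference of 0.05 ± 0.10 (adjusted p = 0.946). Ntmt1, Klf11, Zfp936 and Fscn1 had differences from -0.21 to 0.06.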

How the data were processed

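Single-embryo libraries come with 1 expected count per gene symbol, which the authors made with RSEM on mm10 and deposited without normalization, per the labels' protocols. Editing was deposited as EPKM per 3′ UTR, a score of the authors whose depth is unknown; 3 columns of that table fit none of the labels and were left out. Further tools in the submitters' processing notes, listed without their use, are STAR, featureCounts, FastQC, cutadapt, DESeq2 1.48.2 and R 4.5.1. No mitochondrial entries are in the count table, so that share was not computed.

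Groups were read from the sample titles. Expected counts were rounded and tested with edgeR 4.0.16 in R 4.3.3: low counts were filtered by group with filterByExpr, libraries scaled by TMM, and quasi-likelihood tests adjusted by Benjamini-Hochberg across every gene that entered, the threshold being 0.05. The trend is the slope on a score of 0 for control, 1 for low and 2 for high. Pairwise contrasts share a 3-group fit; effects of other stages and of miR-200c were fitted within each experiment, and their differences as interactions (the middle dose of miR-200c was not used). SE is the log2 fold change over the root of its F statistic. CPM uses the library total. Editing was tested with limma 3.58.1 on log2(EPKM + 1), entries above 0 in at least 25% of either group. DESeq2 1.42.0 was an alternative. Permutation tests of library properties used 100000 resamples. The trend, injected, interaction and limma fits were tested on simulated data with known changes. The protocols name no molecular identifiers, so the spread between embryos includes amplification noise.

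Named genes are the 6 of smallest p in each direction of the trend and of injected against control, with mean CPM of at least 10 in the higher group and a count in at least 50% of its embryos, up to 4 members of each list, and Ago2, Dicer1 and Nr5a2. Predicted and Rik genes were passed over. A430005L14Rik, Gm10697, Col13a1, Asb12, Abca4, Spata6, Gm21312, Selp, Tbx19 and Tmem86a were added after their values were seen. The embryos, gene lists and named genes were chosen with earlier results of these data known. Seed matches were searched in RefSeq 3′ UTRs of at least 30 bases on GRCm38.p6, taking the transcript with the longest one for each gene.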

Additional observations from a re-analysis of the deposited data

Results flagged for a closer look

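These results are listed because the injected effect differed between stages or between microRNAs by an interaction test (edgeR, adjusted p under 0.05). Between the 4-cell and the 2-cell stage 406 genes passed, between the 4-cell and the morula stage 273, and between miR-465c and miR-200c at the 4-cell stage 4. With only the genes that passed the filter on low counts in both fits, 0 passed in each of the 3 comparisons, so the call for every gene below ends under that restriction.

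Against morulae, the effect at the 4-cell stage was lower for Rimklb (log2 difference -1.42, adjusted p = 0.012 over all genes and 0.297 over those tested in both), Naalad2 (-1.28, 0.0256 and 0.461) and Aebp2 (-1.01, 0.00607 and 0.297). It was higher for Sesn2 (1.27, 0.0197 and 0.461) and Ppp1r15a (0.96, 0.0475 and 0.642). All 5 genes were named for their small p at the 4-cell stage, which enters these differences.

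Against 2-cell embryos, the effect was higher for Usp17lb (3.48), Gm21312 (4.09) and Pmvk (2.12) and lower for Hsp90aa1 (-0.61), with an adjusted p of 0.753 for each over the genes tested in both. Aqp3 differed by 2.41 and did not pass the filter in both stages.

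The 4 genes that differed between the microRNAs were scarce. Col13a1 had a count in 15 of 40 miR-465c embryos and 0 of 23 of their controls, and in 16 of 47 miR-200c embryos and 11 of 24 of theirs. Asb12 had a count in 8 of 40 and 2 of 23, and in 16 of 47 and 12 of 24. Abca4 had a count in 9 of 40 and 2 of 23, and in 2 of 47 and 9 of 24. Spata6 had a count in 3 of 40 and 8 of 23, and in 11 of 47 and 9 of 24. The part of detection in these differences was not tested.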

How the results depend on the processing

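In each of the 5 comparisons of 4-cell embryos, the 0 genes past the threshold stayed 0 with edgeR's RLE scaling in place of TMM. The same held with a mean CPM of at least 10, a robust spread and bands of embryo numbers. It also held with the share of the 10 most abundant genes as a covariate. Leaving out the 3 embryos with sperm transcripts (chosen after seeing the data) gave 0 too. For injected against control, so did the mean of the dose effects. DESeq2 called 4 genes for injected against control and 0 in the other 4. With no filter on low counts, 1211 genes passed for the trend and 1624 for injected against control. For low and high against control and for high against low, 1601, 1364 and 1403 passed. In the same order, 11, 35, 33, 13 and 8 of these belong to the 10027 genes tested otherwise. Of the same calls, 1069, 1406, 1329, 1121 and 1118 had a count in 5 or fewer embryos. For injected against control, the 35 included Zfp707, Ntmt1, Med29, Klf11, Naalad2 and Aebp2 (adjusted p from 0.0024 to 0.025 by edgeR). Rfxank, Enah and Cenpf did not pass there (adjusted p from 0.153 to 0.435 by edgeR). Zfp707 also passed for the trend (adjusted p = 0.0040 by edgeR). Without the 4 embryos under 1000000 counts (chosen after seeing the data), 2 genes passed for low against control, Selp and Tbx19. Their log2 fold changes were -5.92 and -5.90 there, and -4.92 and -2.77 when only high-dose embryo 20 was left out. Leaving out each of the 63 embryos in turn gave from 0 to 0 genes for the trend and for injected against control; the pairwise contrasts were run only without high-dose embryo 20 (chosen after seeing the data), with 0 genes each. The interaction counts of 406, 273 and 4 became 0, 0 and 0 over genes tested in both fits (chosen after seeing the data).

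Embryos with the same number in 2 groups deviated together with a median r of 0.015 (15 pairs), 0.033 (20) and 0.070 (14), and 2, 2 and 5 pairs exceeded 0.1. Embryos of different numbers had a median r of -0.0012, -0.0024 and -0.0044. The closest embryo carried the same number in 1, 0 and 0 cases. What the numbers stand for is not in the labels, and these values do not settle whether they pair embryos. The main fits used no pairing. The replicate block gave 0 genes for the trend, injected and high against control and 1, Tmem86a, for low against control and for high against low. The log2 differences of Tmem86a were -6.77 and 7.08 there, and -1.48 and 1.64 without the block when only high-dose embryo 20 was left out. No gene passed between bands of embryo numbers by edgeR, with 487 at an unadjusted p under 0.05.

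Among the named genes whose fold change is given, list members included, directions turned for 4, none past the threshold. Ago2 went to -0.105 with RLE scaling in edgeR and -0.107 by DESeq2, with -0.0011 to 0.225 over single embryos left out. Hist2h3c1 went to 0.466 with the replicate block, 0.529 with the 10-gene share, 0.376 without embryos under 1000000 counts and 0.686 by DESeq2, with -2.08 to 0.638 over single embryos left out. Nr5a2 went to 0.069 with the 10-gene share and 0.093 without embryos under 1000000 counts, with -0.075 to 0.052. Ep300 went to 0.0022 without embryos under 1000000 counts and 0.036 by DESeq2, with -0.67 to -0.0135 over single embryos left out. The cause was not tested, but leaving out control embryo 23 alone turns Hist2h3c1 and Nr5a2, control embryo 10 Nr5a2 and control embryo 22 Ago2. Depth limits genes of a few CPM, where a library of 414273 counts holds few reads.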
